A study of Mus musculus with 8 samples.

Results

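Kainate receptors are glutamate-gated ion channels, and the Neto proteins are the auxiliary subunits that travel with them. The 7 genes described here are the channel subunits Grik1, Grik2, Grik3, Grik4 and Grik5 and the auxiliary subunits Neto1 and Neto2, taken by gene name from a table of 13130 genes, together with their 14 rows in a table of 24526 transcripts. All 7 genes and 13 of the 14 transcripts passed the filter on low values, which asked for an average of 0.5 FPKM or more. The family was chosen by its values in the same comparison, since Neto1 was already known to read lower and Grik5 higher after knockdown, so the differences between the groups are given here as a description and support nothing.

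Stranded libraries were made from total RNA of orbital frontal cortex, taken at 12 weeks of age from mice on the C57BL/6 background. A total of 4 control libraries came from tissue that received a scrambled short hairpin RNA (sh-scramble). The other 4 came from tissue that received sh-circHomer1/sh-Homer1b, hairpins against the circular RNA circHomer1 and the linear isoform Homer1b. All libraries thus carried a hairpin. The labels do not say which of the hairpins each knockdown library received, which cells took it up, or whether each library was a separate animal, so the spread given is that between libraries.

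Kainate receptors are tetramers. GluK1, GluK2 and GluK3, encoded by Grik1, Grik2 and Grik3, can form channels by themselves, while GluK4 and GluK5, encoded by Grik4 and Grik5, bind kainate with high affinity and need one of the former to reach the surface as a working channel. Neto1 and Neto2 are single-pass membrane proteins with CUB domains that slow the gating of the channel, and Neto1 is also known as a partner of NMDA receptors. In the cortex, kainate receptors act on both sides of the synapse and change transmitter release as well as postsynaptic excitability.

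In Neto2 and Grik2, the transcript that the signal was put on differed from library to library. Whether the RNA itself differed was not tested. The sequences in which the transcripts of these genes differ are shown first. RefSeq promoter windows were found for 5 of the 7 members. Neto2 (ENSMUSG00000036902, chromosome 8, 85636588 to 85700924, minus strand, GRCm38) has 2 start sites in RefSeq, 9915 bases apart. In GENCODE M21, transcripts Neto2-203 and Neto2-205 begin with the upstream first exon and Neto2-201 with the downstream one. Both promoters are printed from RefSeq (GRCm38.p6), from 250 bases before the RefSeq start to 30 bases into the transcript (chr8:85700895-85701174 and chr8:85690980-85691259, minus strand), and the capitals mark GGGCGG, the core of a GC box. The GENCODE starts of Neto2-203 (85700754) and Neto2-201 (85690973, the first base of its start codon) lie outside these windows.
Upstream start of Neto2: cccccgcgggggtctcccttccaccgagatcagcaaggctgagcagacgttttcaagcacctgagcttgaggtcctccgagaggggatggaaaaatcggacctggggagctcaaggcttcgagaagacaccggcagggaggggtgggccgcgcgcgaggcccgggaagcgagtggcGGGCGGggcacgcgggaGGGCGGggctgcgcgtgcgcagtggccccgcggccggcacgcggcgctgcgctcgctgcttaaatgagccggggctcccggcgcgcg
Downstream start of Neto2: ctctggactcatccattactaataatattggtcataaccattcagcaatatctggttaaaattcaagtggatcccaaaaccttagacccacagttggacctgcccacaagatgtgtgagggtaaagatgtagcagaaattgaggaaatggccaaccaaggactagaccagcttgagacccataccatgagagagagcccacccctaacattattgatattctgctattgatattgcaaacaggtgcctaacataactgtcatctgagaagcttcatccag
The upstream window was 72.1% G or C and held 35 CG pairs and 2 matches to GGGCGG. The downstream window was 42.5% G or C and held 0 CG pairs and 0 matches. Over 32851 mouse promoter windows of the same length the medians were 52.5% and 6 CG pairs, and 34.7% held GGGCGG on either strand. Of the other motifs searched on both strands, TATAAA and TGACGTCA were in neither window (13.1% and 1.74% of all windows held them), and CCAAT was in the downstream window with 1 match (36.1% of all windows). Such matches describe the letters of the window and are not evidence of a bound factor.

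The first exons also differ in the coding sequence they carry, shown here from GENCODE M21 with the start codon in capitals (chr8:85700641-85700674 and chr8:85690835-85690973, minus strand, GRCm38).
First coding bases of Neto2-203: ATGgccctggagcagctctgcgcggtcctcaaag
First coding bases of Neto2-201: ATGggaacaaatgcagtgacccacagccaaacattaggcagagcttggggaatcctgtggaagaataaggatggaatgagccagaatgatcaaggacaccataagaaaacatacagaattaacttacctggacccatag
Both then join the same second exon. The annotated protein has 518 codons in Neto2-203, 525 in Neto2-205, whose coding sequence is 21 bases longer at an internal exon, and 553 in Neto2-201.

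Grik2 (ENSMUSG00000056073, chromosome 10, 49094833 to 49788766, minus strand) ends in alternative exons that give the receptor a long or a short intracellular tail. The long-tail transcripts Grik2-202 and Grik2-207 have 908 codons and differ from each other in their untranslated ends. The short-tail transcripts Grik2-201 and Grik2-204 have 869 codons, and the partial transcript Grik2-209 carries the short-tail stop codon. The last coding exons follow, from GENCODE M21, with the stop codon in capitals (chr10:49101108-49101272 and chr10:49105018-49105065, minus strand, GRCm38).
Long tail (Grik2-202): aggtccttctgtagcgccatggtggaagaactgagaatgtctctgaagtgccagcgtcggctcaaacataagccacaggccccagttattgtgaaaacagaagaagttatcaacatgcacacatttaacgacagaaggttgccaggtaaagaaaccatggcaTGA
Short tail (Grik2-201): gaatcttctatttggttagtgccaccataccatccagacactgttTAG
The long tail is thus encoded by 54 codons and the short tail by 15 codons beyond the last shared exon.

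Over all 8 libraries the genes spanned a wide range of levels, in FPKM (fragments scaled to transcript length and library size, as deposited). Grik5 was the highest at 39.0 ± 3.75 FPKM, followed by Neto1 at 25.7 ± 5.21, Grik3 at 21.9 ± 4.80, Neto2 at 10.8 ± 4.15, Grik2 at 5.77 ± 0.935, Grik4 at 4.98 ± 0.925 and Grik1 at 1.76 ± 0.348 FPKM (SD, n = 8 libraries, both groups). This order holds for the gene values. The 1 listed transcript of Grik5, Grik5-201, had a mean of 15.3 FPKM, below Neto1-201 at 25.7 and Grik3-201 at 21.9 FPKM.

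The order of neighbours was examined in the same libraries with an exact two-sided sign-flip permutation test on log2(FPKM + 1), adjusted over the 6 neighbouring pairs by Benjamini-Hochberg; the smallest p that 8 libraries allow is 0.00781. The order was itself taken from the means of these libraries, so the p-values describe how steadily it held and are no separate support. Grik5 exceeded Neto1 in 8 of 8 libraries, by 1.16-fold to 2.55-fold (adjusted exact p = 0.0156). For this pair the range includes the group difference that chose the family. Neto1 read 0.796 to 0.861 FPKM per FPKM of Grik5 in controls and 0.392 to 0.609 after knockdown. Grik3 exceeded Neto2 and Grik4 exceeded Grik1, also in 8 of 8 libraries each (adjusted exact p = 0.0156). Neto2 exceeded Grik2 in 7 of 8 libraries (adjusted exact p = 0.0352). Neto1 was above Grik3 in 6 of 8 libraries and Grik2 above Grik4 in 5 of 8, and neither pair passed (adjusted exact p = 0.0844 and 0.195).

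**Figure D1:**
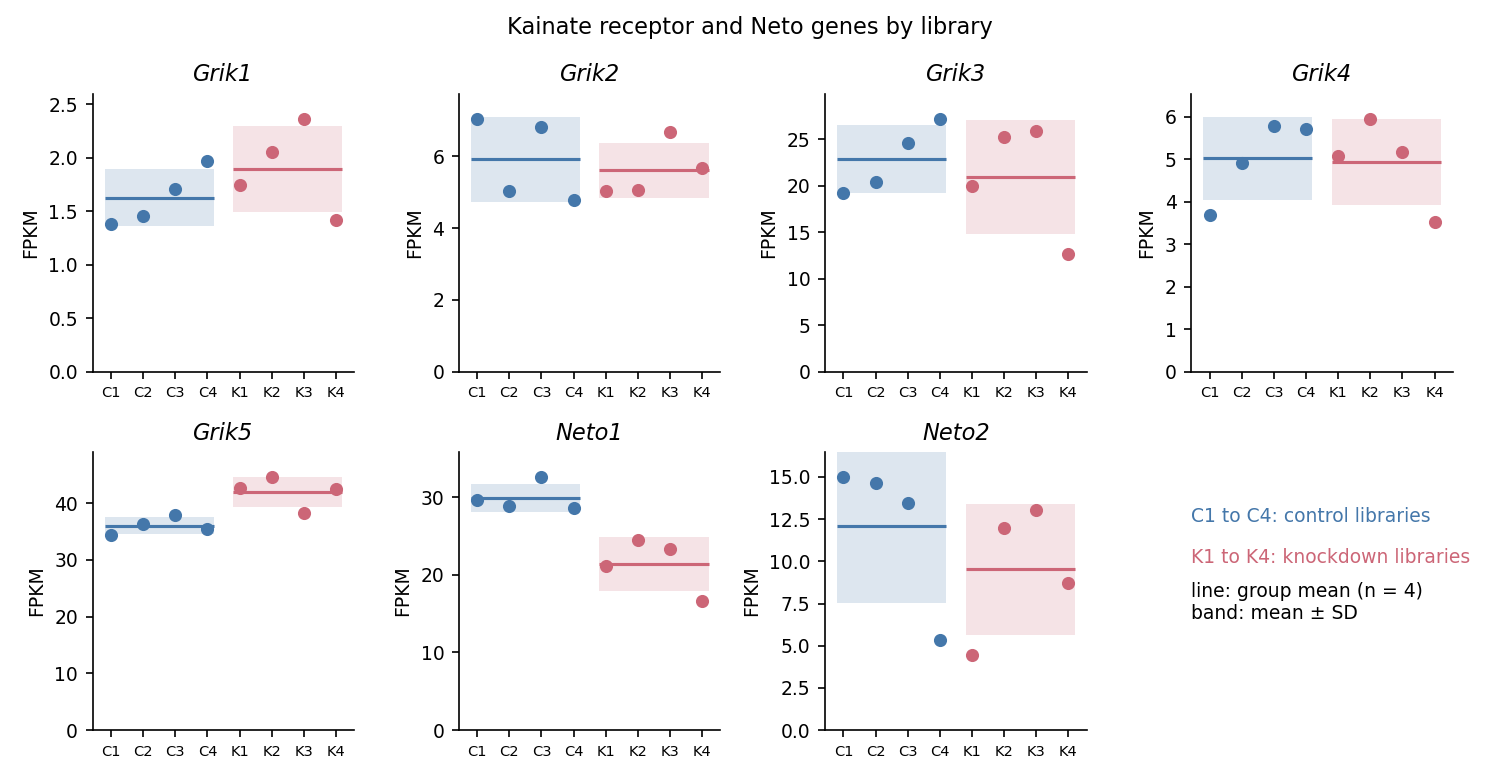
Deposited FPKM of each kainate receptor and Neto gene in every library, with C1 to C4 the control and K1 to K4 the knockdown libraries; lines are group means and bands the mean ± SD (n = 4). The Neto1 and Grik5 points of the 2 groups do not overlap, and Neto2 is low in C4 and K1.

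Beside the other ionotropic glutamate receptors, the summed level of Grik1 to Grik5 ran from 65.7 to 82.9 FPKM per library, that of 6 NMDA receptor subunits from 71.6 to 82.6 and that of the 4 AMPA receptor subunits from 164 to 177 FPKM. Summed kainate and NMDA receptor levels overlapped, and every library had more AMPA than kainate receptor signal. The summed kainate level was 71.5 ± 5.36 FPKM under sh-scramble and 75.4 ± 7.29 FPKM after knockdown (SD, n = 4 each), less apart than the SD of the knockdown group.

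**Figure D2:**
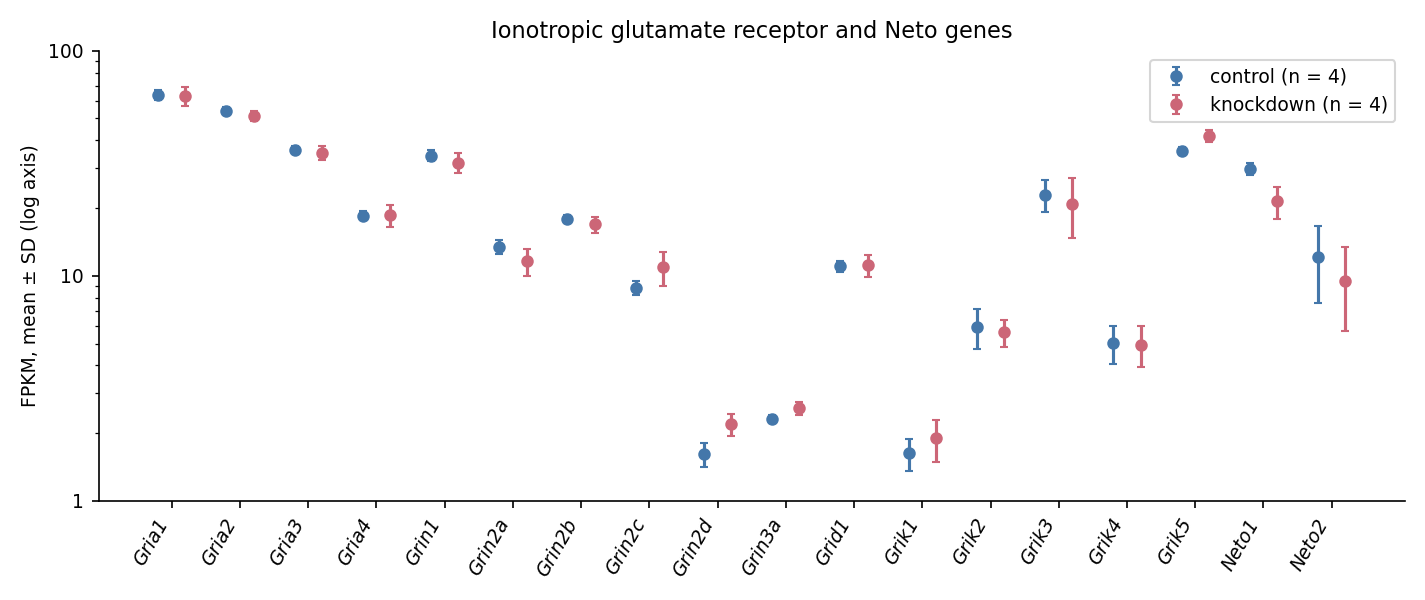
Mean FPKM ± SD (log axis) of AMPA (Gria), NMDA (Grin), delta (Grid1) and kainate (Grik) receptor subunits and Neto genes, in controls and knockdown libraries (n = 4 each). By gene value, Grik5, at 36.0 and 42.0 FPKM, lies between Gria4 and Gria2. Grik1, at 1.62 and 1.89 FPKM, lies near Grin2d at the bottom.

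Summed gene FPKM ran from 214316 to 224323 per library, and read depth is not given. Homer1, the targeted gene, read 18.9 to 26.3 FPKM under sh-scramble and 16.5 to 19.3 FPKM after knockdown, so the groups overlapped (limma, Benjamini-Hochberg adjusted p = 0.273, unadjusted p = 0.0124). Its mean was 20.8% lower in the knockdown group, and all 4 knockdown libraries were below the control mean of 22.5 FPKM. This gene value does not separate circHomer1 or Homer1b from other Homer1 RNA. The excitatory cortical markers Slc17a7, Neurod6, Tbr1, Neurod2 and Camk2a summed to 398 to 498 FPKM under sh-scramble and 435 to 512 FPKM after knockdown. Several marker lists of other cells or regions differed between the groups or in single libraries. All 14 striatal projection neuron markers had a lower mean in the knockdown group, with summed levels of 184 to 684 FPKM under sh-scramble and 130 to 401 FPKM after knockdown. All 11 oligodendrocyte markers had a lower mean (949 to 1192 against 637 to 1288 FPKM), and all 9 astrocyte markers a higher one (260 to 295 against 272 to 341 FPKM). All 4 measured claustrum markers had a lower mean (17.3 to 35.2 against 14.0 to 20.0 FPKM), and all 6 upper-layer cortical markers a higher one (48.3 to 78.0 against 50.5 to 111 FPKM). Knockdown replicate 4 stood apart in olfactory bulb markers: Cdhr1 and Doc2g read 9.93 and 10.4 FPKM there and at most 1.05 and 1.12 FPKM in the other 7 libraries. Calb2 and Th were also highest there, at 33.6 and 5.66 FPKM. Pcp4l1 of the same list did not stand apart, at 114 FPKM there and 56.1 to 137 FPKM in the other 7. In bulk tissue, fewer cells of a type and less RNA per cell cannot be told apart.

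Across the whole gene table, limma called 0 of 13004 genes at an adjusted p under 0.05, and 1842 genes, 14.2%, had an unadjusted p under 0.05, 1183 of them higher and 659 lower after knockdown. The split was 964 to 839 after median-of-ratios rescaling, and without control replicate 1 the count was 1199. Leaving out control replicate 1, control replicate 2 or knockdown replicate 3 gave 1 gene past the adjusted threshold, and leaving out knockdown replicate 4 gave 2. The groups did not overlap in 9.15% of genes, 5.93% higher and 3.22% lower in the knockdown group. Among the 7 members, 2 had an unadjusted p under 0.05 and the same 2, Neto1 and Grik5, did not overlap. These counts come from the comparison that chose the family and nothing is read from them. The members' median log2 difference, knockdown minus control, was -0.06, beside 0.01 over all genes tested.

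**Figure D3:**
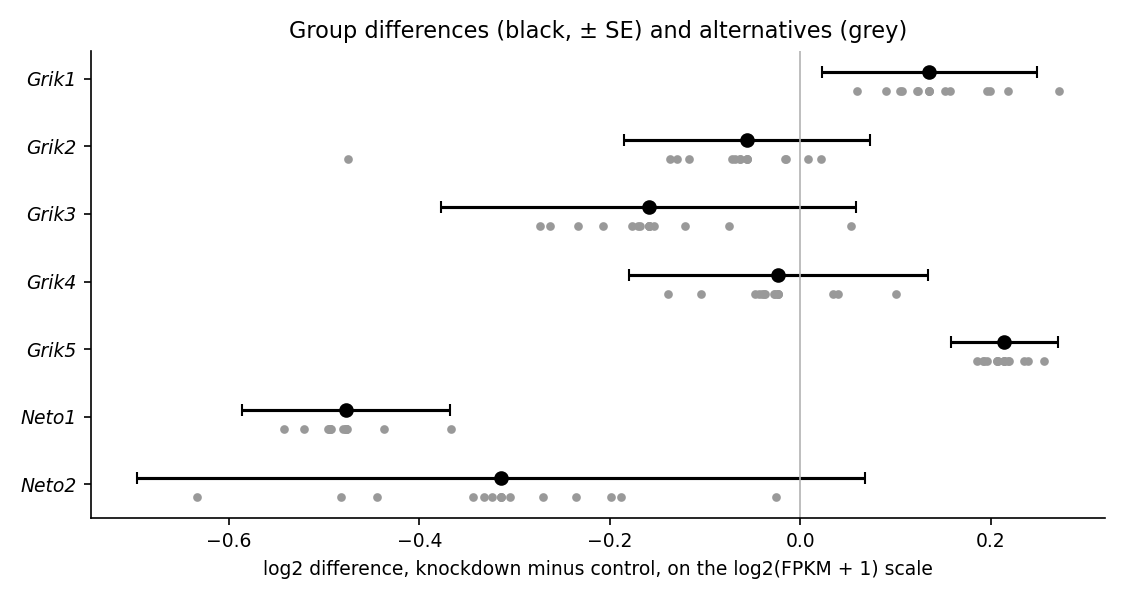
Log2 difference in level, knockdown minus control, of each gene on the log2(FPKM + 1) scale, with black points for the 8 libraries (± SE) and grey points for each alternative setting and each library left out. Neto1 stays between -0.54 and -0.37 and Grik5 between 0.19 and 0.26, while Grik2, Grik3 and Grik4 have points on both sides of 0.

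Grik1, Grik2 and Grik3, the subunits that form channels by themselves, overlapped between the groups. Grik3 (ENSMUSG00000001985, chromosome 4, 125490700 to 125714173, plus strand, GRCm38) has 1 annotated transcript, and its gene and transcript values are identical. It read 19.3, 20.4, 24.6 and 27.2 FPKM under sh-scramble and 19.9, 25.3, 25.9 and 12.6 FPKM after knockdown. Knockdown replicate 4 was the lowest of all 8, and the other 3 knockdown libraries lay within the control range. The log2 difference was -0.16 ± 0.22 (SE), and 0.05 without knockdown replicate 4, the library with the olfactory bulb markers. The part of that library's composition in the Grik3 value was not tested.

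Grik2 read 7.04, 5.03, 6.82 and 4.78 FPKM under sh-scramble and 5.04, 5.06, 6.67 and 5.68 FPKM after knockdown. The knockdown values lay inside the control range, and the log2 difference of -0.06 ± 0.13 (SE) was smaller than its error and changed sign without control replicate 1 or 3. Grik1 (ENSMUSG00000022935, chromosome 16, 87895900 to 88290265, minus strand), a subunit known from interneurons and sensory neurons, read 1.38, 1.45, 1.71 and 1.96 FPKM under sh-scramble and 1.75, 2.05, 2.36 and 1.42 FPKM after knockdown. Its groups overlapped (log2 difference 0.14 ± 0.11, SE), and this low level gives the value limited precision.

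Of the high-affinity subunits, Grik5 was separate between the groups and Grik4 was not. Grik5 (ENSMUSG00000003378, chromosome 7, 25009849 to 25072346, minus strand) read 34.4, 36.3, 38.0 and 35.4 FPKM under sh-scramble and 42.6, 44.5, 38.3 and 42.5 FPKM after knockdown. All 4 knockdown libraries were above every control, by 0.32 FPKM at the closest, between knockdown replicate 3 and control replicate 3. The means were 36.0 ± 1.51 and 42.0 ± 2.63 FPKM (SD, n = 4 each), which made the log2 difference 0.21 ± 0.06 (SE). In the fit over all genes its adjusted p was 0.266 (limma), short of the threshold. Grik5 was also the steadiest member within a group, with a coefficient of variation of 4.20% in controls and 6.26% in the knockdown group.

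The one listed Grik5 transcript, Grik5-201 with 979 codons, accounted for 36.0% to 43.1% of the gene value. GENCODE M21 holds 7 Grik5 transcripts, of which 1 is protein-coding, and both deposited tables list protein-coding rows only. Grik5-201 read 12.6, 14.6, 16.0 and 12.7 FPKM under sh-scramble and 16.1, 17.2, 16.5 and 16.5 FPKM after knockdown. The remainder of the gene value was 22.0 ± 0.446 FPKM under sh-scramble and 25.4 ± 2.48 FPKM after knockdown (SD, n = 4 each). The remainder overlapped between the groups, at 21.8 FPKM in knockdown replicate 3 and 21.7 to 22.7 FPKM in controls. It is a difference between the gene and transcript values and not a measured RNA. The listed transcript and the remainder both had the higher mean in the knockdown group. The share of the listed transcript was 38.7% ± 2.93 and 39.6% ± 2.39.

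Grik4 (ENSMUSG00000032017, chromosome 9, 42518135 to 42944493, minus strand) read 3.68, 4.91, 5.80 and 5.72 FPKM under sh-scramble and 5.09, 5.96, 5.18 and 3.54 FPKM after knockdown. Control replicate 1 and knockdown replicate 4 were the lowest, and the groups overlapped (log2 difference -0.02 ± 0.16, SE, and 0.10 without knockdown replicate 4). Of all kainate receptor signal by gene value, Grik4 and Grik5 made up 57.5% ± 2.37 under sh-scramble and 62.6% ± 6.07 after knockdown (SD, n = 4 each). This share rests on the Grik5 gene value, with means of 36.0 and 42.0 FPKM. The protein-coding Grik5-201 alone had means of 14.0 and 16.6 FPKM, so the share does not describe coding transcripts. The highest share, 70.0%, was in knockdown replicate 4, where Grik3 was lowest, and the other 3 knockdown libraries ran from 55.5% to 64.1%, against 54.8% to 60.5% in controls.

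Neto1 differed in the opposite direction to Grik5. It read 29.6, 28.9, 32.5 and 28.6 FPKM under sh-scramble and 21.2, 24.5, 23.3 and 16.7 FPKM after knockdown. Every knockdown library was below every control, by 4.18 FPKM at the closest. The means were 29.9 ± 1.80 and 21.4 ± 3.45 FPKM (SD, n = 4 each), 28.4% lower in the knockdown group, with a log2 difference of -0.48 ± 0.11 (SE) and an adjusted p of 0.266 over all genes (limma). Knockdown replicate 4, the library with olfactory bulb markers, had the lowest value, and without it the log2 difference was -0.37. The part of tissue composition in the Neto1 and Grik5 values was not tested. Of the 13004 genes tested, 0.792% had a lower log2 difference than Neto1 and 76 had a smaller p. This place comes from the comparison that chose the family, so nothing is read from it. Its 1 listed transcript, Neto1-201, has the same values as the gene; the identifier version in the table is older than that in GENCODE M21. The gene lies on chromosome 18, plus strand.

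Set against each other within a library, Neto1 read 0.861, 0.796, 0.857 and 0.809 FPKM per FPKM of Grik5 under sh-scramble and 0.497, 0.549, 0.609 and 0.392 after knockdown. The ratio had means of 0.831 ± 0.0332 and 0.512 ± 0.0920 (SD, n = 4 each), and the groups did not overlap, as follows from the 2 genes taken singly. A ratio of this kind does not depend on the scaling of a library, and it shows an unequal difference, not which of the genes differed.

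Neto2 varied more than any other member, by 3.39-fold between its lowest and highest library. It read 15.0, 14.6, 13.5 and 5.32 FPKM under sh-scramble and 4.42, 12.0, 13.0 and 8.70 FPKM after knockdown. Control replicate 4 and knockdown replicates 1 and 4 were low, the other 5 libraries read 12.0 to 15.0 FPKM, and the groups overlapped. The log2 difference was -0.31 ± 0.38 (SE), and it ran from -0.63 without control replicate 4 to -0.03 without knockdown replicate 1. The same 3 libraries had the lowest summed striatal markers, 184, 168 and 130 FPKM, where the other 5 held 322 to 684 FPKM. The part of striatal RNA in the Neto2 values was not tested. With Neto2 low, Neto1 made up 84.3% and 82.7% of the summed Neto level in control replicate 4 and knockdown replicate 1 and 64.2% to 70.7% in the other 6.

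In replicate order, the striatal markers summed to 684, 410.5, 593 and 184 FPKM under sh-scramble and 168, 322, 401 and 130 FPKM after knockdown. Within the knockdown group, the libraries with the lower striatal sums, replicates 1 and 4, also had the lower Neto1 values, 21.2 and 16.7 FPKM. Among controls, Neto1 read 29.6, 28.9, 32.5 and 28.6 FPKM in replicate order. Control replicates 1 and 3, with the higher striatal sums, also had the higher Neto1 values. Control replicate 4, with the lowest striatal sum, read close to control replicate 2. Knockdown replicates 1 and 4 also differed from 2 and 3 in other lists. Their oligodendrocyte sums were 740 and 637 against 1133 and 1288 FPKM, and their upper-layer sums 94.2 and 111 against 50.5 and 55.6 FPKM. The part of any of these lists in the Neto1 values was not tested.

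**Figure D4:**
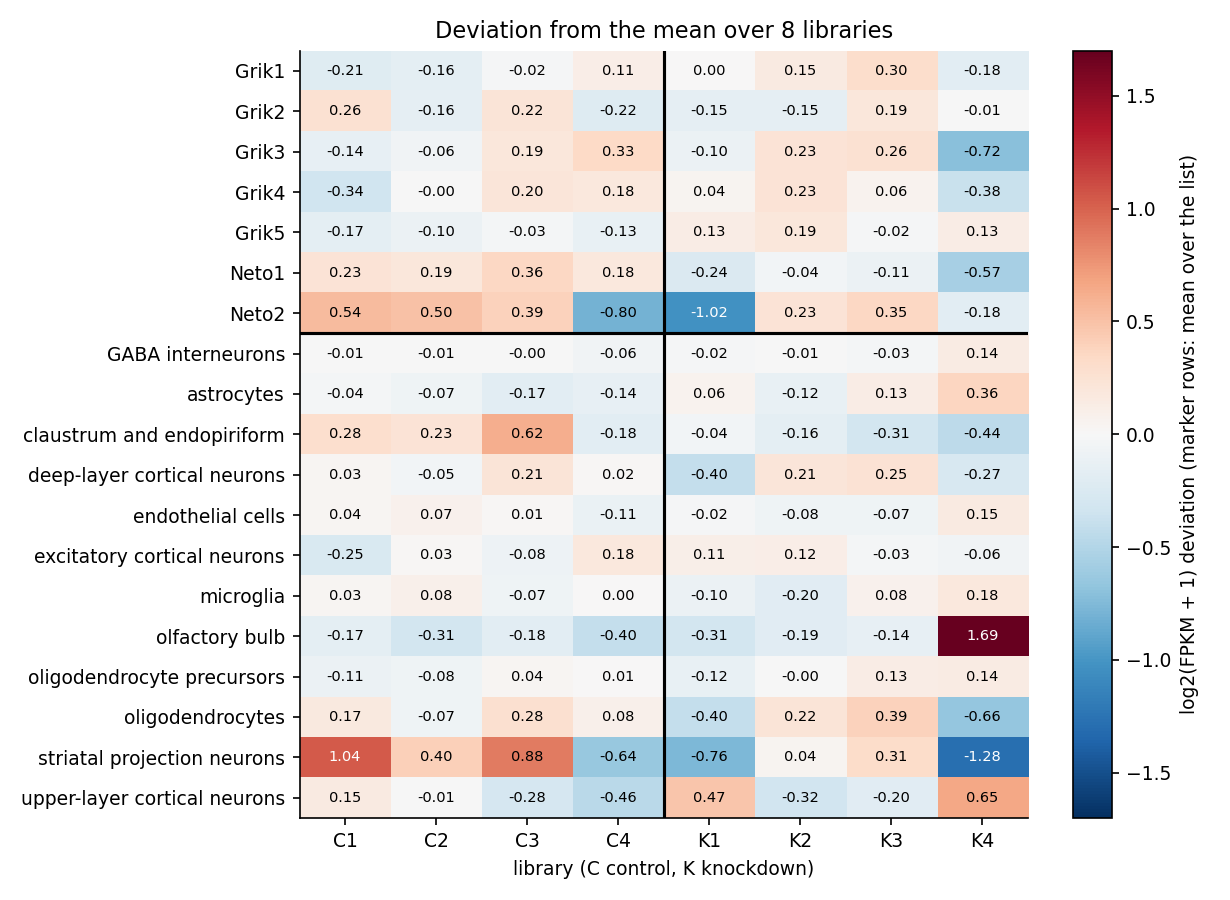
Deviation of each gene (top 7 lines) and of the mean of each marker list (below) from its own mean over the 8 libraries, on the log2(FPKM + 1) scale, with C1 to C4 the controls and K1 to K4 the knockdown libraries. The striatal list is at -0.64, -0.76 and -1.28 in C4, K1 and K4, where Neto2 is at -0.80, -1.02 and -0.18, and the olfactory bulb list reaches 1.69 in K4.

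At the level of transcripts, the values of Neto2 and Grik2 shifted between single libraries in ways that their gene values did not. The transcripts of each gene share exons. Whether the shifts lie in the RNA or in the assignment of reads to transcripts was not tested. Neto2-201, from the downstream start, read 11.4, 2.68, 11.0 and 2.37 FPKM under sh-scramble and 2.47, 3.11, 2.18 and 1.80 FPKM after knockdown. It was high in control replicates 1 and 3 only. Neto2-203, from the upstream start, read 3.30, 13.9, 2.31 and 2.50 FPKM under sh-scramble and 1.87, 10.3, 12.4 and 8.04 FPKM after knockdown. Control replicates 1, 2 and 3 had gene values from 13.5 to 15.0 FPKM, yet 67.3%, 14.7% and 71.8% of their listed Neto2 signal was put on the downstream-start transcript. In the knockdown libraries that share was 43.9%, 21.2%, 13.3% and 17.0%. Summed, Neto2-201 and Neto2-203 read 14.7, 16.5, 13.3 and 4.87 FPKM under sh-scramble and 4.34, 13.4, 14.6 and 9.85 FPKM after knockdown. This sum was low in control replicate 4 and knockdown replicates 1 and 4, as the gene value was. The third transcript, Neto2-205, was steadier, at 1.99 ± 0.221 FPKM under sh-scramble and 1.28 ± 0.402 FPKM after knockdown (SD, n = 4 each), and its groups overlapped.

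Grik2 transcripts varied in the same manner. The long-tail transcript Grik2-202 read 9.08, 0.0418, 0.407 and 5.23 FPKM under sh-scramble and 0.356, 0.177, 0.0676 and 7.43 FPKM after knockdown. It thus stood above 5 FPKM in 3 libraries of both groups and below 0.5 FPKM in the other 5. Grik2-207, which encodes the same protein with longer untranslated ends, ranged from 2.53 to 5.86 FPKM. The short-tail transcript Grik2-201 read 4.54 FPKM in control replicate 3 and at most 0.460 FPKM elsewhere.

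Summed by tail, the long form made up most of the listed Grik2 signal in 7 of 8 libraries. The short-tail share was 12.7%, 17.0%, 53.9% and 5.42% under sh-scramble and 11.8%, 18.4%, 38.3% and 3.96% after knockdown. It was highest in replicate 3 of both groups, and the groups overlapped. Different transcripts held the largest short-tail value in those libraries. In control replicate 3 it was Grik2-201, at 4.54 FPKM, and in knockdown replicate 3 the partial Grik2-209, at 2.13 FPKM. The listed Grik2 transcripts summed to 84.4% to 199% of the gene value, so transcript and gene levels of Grik2 are not on 1 scale. For Neto2 the listed transcripts summed to 113% to 128% of the gene value.

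**Figure D5:**
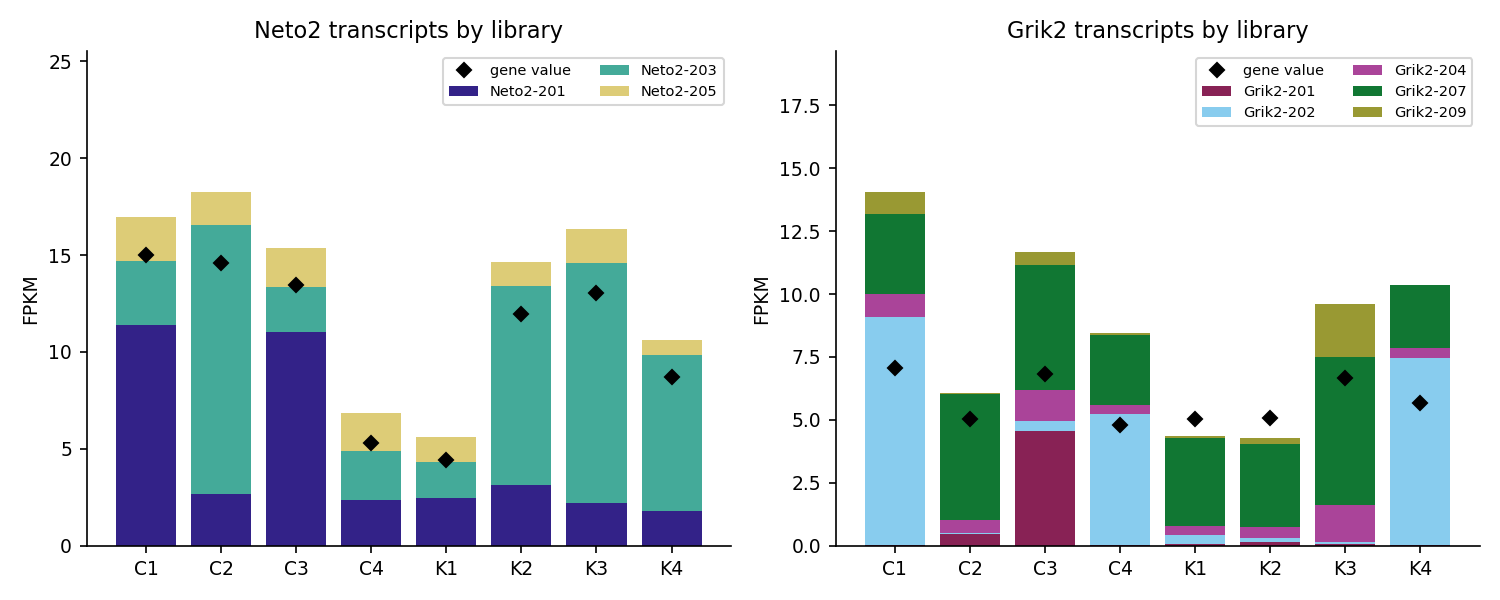
Stacked FPKM of the listed transcripts of Neto2 (left) and Grik2 (right) in each library, with the deposited gene value as a black diamond; C1 to C4 are controls and K1 to K4 knockdown libraries. Neto2-201 holds 11.4 and 11.0 FPKM in C1 and C3 and at most 3.11 FPKM elsewhere, and Grik2-202 is high in C1, C4 and K4.

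The remaining transcripts were less informative. Grik1-202 and Grik1-209 had means of 0.503 and 1.30 FPKM under sh-scramble and 0.798 and 1.53 FPKM after knockdown, and the share of Grik1-202 in their sum ran from 16.3% to 58.0%. Grik4-202 made up 95.7% to 99.8% of the Grik4 gene value. Grik2-204 read 0.359 to 1.47 FPKM. The partial Grik2-209, the transcript below the filter, had a value of 0 in knockdown replicate 4 and reached 2.13 FPKM in knockdown replicate 3. Across all 23415 transcripts tested, 7.96% had an unadjusted p under 0.05, and limma called 6, or 0.0256%, at an adjusted p under 0.05. Of the 13 member transcripts tested, 3 had an unadjusted p under 0.05 (Neto1-201, Grik5-201 and Neto2-205) and 0 passed when adjusted over all transcripts. Without control replicate 1 only Neto1-201 had an unadjusted p under 0.05. Grik5-201 was also lost without control replicate 4, and Neto2-205 without control replicate 3. Other members came under 0.05, Neto2-201 without control replicate 2 or 4 and Grik1-202 without knockdown replicate 3. The groups did not overlap for 2 of the 13, Neto1-201 and Grik5-201, beside 5.7% of all transcripts, 3.04% higher and 2.66% lower.

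The genes around the family were taken from a list of 29 partners, trafficking factors and editing enzymes of kainate receptors, of which 27 were tested. At an unadjusted p under 0.05, 2 had a higher and 2 a lower value in the knockdown group, beside 9.1% and 5.07% of all genes, and 0 passed over all genes. Without control replicate 1 the count was 2 in place of 4. C1ql3, a secreted C1q-like protein that binds kainate receptors at hippocampal mossy fibre synapses, read 30.5 ± 3.76 and 42.6 ± 7.38 FPKM, control against knockdown. Grip1, a PDZ scaffold of AMPA and kainate receptors, read 2.25 ± 0.153 and 2.64 ± 0.207 FPKM. Cul3, a ubiquitin ligase scaffold that takes part in the turnover of GluK2, read 28.7 ± 1.05 and 25.6 ± 1.03 FPKM, and Copb1, a coat protein of the vesicles that return unassembled subunits to the endoplasmic reticulum, 11.6 ± 0.335 and 10.6 ± 0.397 FPKM (SD, n = 4 each).

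The list's median log2 difference was 0.01, as it was over all genes. Adarb1, the enzyme that edits the pore codon of GluK1 and GluK2 transcripts, read 11.2 ± 4.09 FPKM under sh-scramble and 12.6 ± 3.88 FPKM after knockdown, and editing itself cannot be read from FPKM. Among related receptors, 0 of the 4 AMPA receptor subunits and 2 of 6 NMDA receptor subunits had an unadjusted p under 0.05, beside 14.2% of all genes, 9.1% higher and 5.07% lower. Those were Grin2c, at 8.84 ± 0.615 and 10.9 ± 1.87 FPKM, and Grin2d, at 1.62 ± 0.199 and 2.19 ± 0.239 FPKM, control against knockdown (SD, n = 4 each), both with the higher mean in the knockdown group and neither past the threshold over all genes (limma adjusted p = 0.321 and 0.266).

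The genes whose library-to-library pattern was nearest to that of Neto1 were found among 11931 other genes with a mean of at least 1 FPKM, as the root mean square difference between log2 deviations over the 8 libraries. They were Epb41, a membrane skeleton protein (0.0589), Skil, a transcriptional co-repressor of SMAD signalling (0.0802), and Chrna7, a nicotinic acetylcholine receptor subunit (0.0963), where Neto1's own deviation was 0.283. Epb41 read 7.46, 7.35, 7.76 and 7.05 FPKM under sh-scramble and 5.13, 6.52, 5.89 and 3.56 FPKM after knockdown. Like Neto1, it was lowest in knockdown replicate 4 and highest in control replicate 3. Nearest to Grik5, whose own deviation was 0.126, were Ptpa (0.0300), an activator of protein phosphatase 2A, Sh3glb2 (0.0338), an endophilin-family protein, and Ctc1 (0.0359), a telomere maintenance protein. These genes were picked for their likeness over libraries that include the group difference, so their own group differences are no separate observation.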

How the data were processed

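The deposited gene and transcript tables hold FPKM, per the file headers; the submitters' processing notes name FastQC, cutadapt, HISAT2 and StringTie, without versions, genome build or annotation. Coordinates were compared with GENCODE M21 (GRCm38): 87.5% of gene identifiers with version were found there, 6 of the 7 members among them, all with the same coordinates. Low values of genes with 1 transcript had no step of 1 read in common (within 0.1 of a step, 24.5% of values or fewer were whole), so depth is unknown and no counts were recovered.

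Values were taken to log2(FPKM + 1), on which folds of low genes are understated. Rows with a mean of at least 0.5 FPKM, 13004 genes and 23415 transcripts, were fitted with limma 3.58.1 in R 4.3.3 (trend and robust, two-sided, Benjamini-Hochberg over each table), knockdown against control, with no block; the fit was tested on simulated data. Members and lists were chosen with earlier results of these data known. Named genes were all members, list genes at an unadjusted p under 0.05, and the 3 genes nearest to Neto1 and to Grik5; Adarb1 was named after its values were seen. Alternatives covered the pseudocount, filter, rescaling, a replicate block, summed transcripts and each library left out. A receptor subunit and a marker gene of these lists are not reported here.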

Additional observations from a re-analysis of the deposited data

Results flagged for a closer look

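Of 38 groups of 4 libraries, 6 held a library far from the other 3. There was 1 group for each member gene or transcript and condition, leaving out Neto1-201 and Grik3-201, whose values are those of their genes. The rule flags about 1 group in 20 where values are normal and groups independent. Low FPKM values are skewed and transcripts of 1 gene share reads, so that rate does not apply here and no excess is read from the count. Neto2 read 5.32 FPKM in control replicate 4, against 13.5 to 15.0 FPKM in the other controls. Neto2-203 read 13.9 FPKM in control replicate 2, against 2.31 to 3.30 FPKM. Grik2-201 read 4.54 FPKM in control replicate 3, against 0.0127 to 0.460 FPKM. In the knockdown group, Grik2-202 read 7.43 FPKM in replicate 4, against 0.0676 to 0.356 FPKM. Grik2-204 read 1.47 FPKM in knockdown replicate 3, against 0.360 to 0.426 FPKM, and Grik2-209 read 2.13 FPKM there, against 0 to 0.230 FPKM. The cause was not tested.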

How the results depend on the processing

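Read depth is unknown. Over 15 alternatives, the log2 difference of Neto1 ran from -0.54 to -0.37, that of Grik5 from 0.19 to 0.26 and that of Grik1 from 0.06 to 0.27, and Neto2 stayed below 0. The sign changed in 2 alternatives for Grik2, 1 for Grik3 and 3 for Grik4, each with a library left out, and with summed transcripts Grik2 differed by -0.48. No member passed the threshold in any of them. With 1 library left out, genes at an unadjusted p under 0.05 numbered 1199 (without control replicate 1) to 2174 (without knockdown replicate 3), transcripts 1421 to 2383, genes past the adjusted threshold 0 to 2 (1 each without control replicates 1 and 2 and knockdown replicate 3, 2 without knockdown replicate 4), and partner list genes 2 (without control replicate 1) to 5. The split of genes, 1183 higher to 659 lower, was 964 to 839 after median-of-ratios rescaling and 990 to 838 after quantile normalization. With the replicate block the counts were 1660 genes and 1646 transcripts. Across genes, r between same-numbered libraries was -0.18, -0.07, 0.20 and -0.02, and between differently numbered ones it ran from -0.22 to 0.19. These values come from deviations within groups of 4 libraries and cannot decide whether the numbers pair the libraries.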
